A study of Mus musculus with 24 samples.

Results

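The genes described here are lipoprotein lipase (Lpl), its inhibitor Angptl4 and 8 related genes: the Lpl carrier Gpihbp1, the folding factor Lmf1, the lipases Lipc, Lipg, Liph and Lipa, and the lipid receptors Vldlr and Cd36. They were chosen by measured values of these arrays, because Lpl was lower along the dose of a berry phenolic extract and Angptl4 was higher at its lowest dose. The comparisons of the extract with water are therefore given as descriptions, with standard errors and no test. By the gene symbols of the platform annotation, 20 of the 45281 probes on the array belonged to 9 of the 10 genes, and no probe carried the symbol Lipc. A probe counted as detected where its detection p-value, the rank of its signal among negative control beads, was under 0.05, and detection on at least 4 of 24 arrays was required. This kept 12 member probes of 7 genes, among 15328 probes of 9164 named genes. Where a gene had several probes they are numbered by brightness.

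Pancreatic RNA was taken from male mice of the inbred strain C57BL/6J, which becomes obese on fatty food, and each of 6 groups of 12 mice had 4 arrays. All groups, water included, ate a diet with 60% fat for 12 weeks, had been bought at an age of 3 weeks, lived singly and were kept under a reversed light cycle. The AFFB group drank an alcohol-free fermented blackberry and blueberry beverage that supplied 8.4 mg per kg body weight per day, read here as its dose of anthocyanins. The sitagliptin group drank 150 mg per L of sitagliptin phosphate, a diabetes drug that blocks DPP-IV and so the breakdown of incretin hormones. The PAE groups received the phenolic compounds of that beverage at a daily 1.1 mg per kg (0.1X), 9.0 mg per kg (1X) or 18.9 mg per kg (3X), where X is the anthocyanin dose of the beverage, and the control group drank water. The protocol gives the top dose as 2X, and the name 3X follows the sample titles. Whether each array stands for its own mouse is not stated in the labels, and errors and p-values thus describe the spread among samples, some of which may be technical.

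Lpl is secreted by cells such as adipocytes, myocytes and macrophages, folds in the endoplasmic reticulum with the help of Lmf1, and is carried by Gpihbp1 across capillary endothelium. There it releases fatty acids from the triglycerides of chylomicrons and very low density lipoproteins. Angptl4, a secreted protein induced by fasting and by fatty acids through PPAR receptors, inactivates it, and Cd36 and Vldlr take part in uptake of the products and of remnant particles. In the pancreas these genes act beside a much larger output of digestive lipases from acinar cells.

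RefSeq promoters (build GRCm38.p6) were at hand for 6 of the 10 genes, in 8 windows, each read over the 250 bases before an annotated start. Those of Lpl, Angptl4, Gpihbp1 and Lipg are not used here. The windows were searched on both strands for AGGTCA, a single site of the kind nuclear receptors such as PPAR bind in pairs, and for GGGCGG, the core of a GC box. The 2 motifs do not overlap in the windows shown. AGGTCA stood in 2 of the 8 windows and in 14.02% of 32851 windows of all genes, and GGGCGG in 5 of 8 and in 32.74%. Liph is shown because its second probe had the smallest p-value of the members, Vldlr (its second start) because 3 of its probes gave like profiles, and Cd36 because its window held both motifs while its probe was never detected. Matches, on either strand, are in capitals.
Liph, chr16:21995543-21995792, minus strand: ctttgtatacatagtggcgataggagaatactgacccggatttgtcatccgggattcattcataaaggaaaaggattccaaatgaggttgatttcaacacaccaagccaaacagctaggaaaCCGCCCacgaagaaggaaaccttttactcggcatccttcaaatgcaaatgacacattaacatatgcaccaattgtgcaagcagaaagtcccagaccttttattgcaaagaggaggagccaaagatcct
Vldlr, chr19:27216770-27217019, plus strand: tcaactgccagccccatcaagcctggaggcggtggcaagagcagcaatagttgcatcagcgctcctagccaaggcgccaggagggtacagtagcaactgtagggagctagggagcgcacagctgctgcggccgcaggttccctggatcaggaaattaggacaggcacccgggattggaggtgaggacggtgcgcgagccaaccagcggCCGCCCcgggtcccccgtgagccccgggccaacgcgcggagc
Cd36, chr5:17835897-17836146, minus strand: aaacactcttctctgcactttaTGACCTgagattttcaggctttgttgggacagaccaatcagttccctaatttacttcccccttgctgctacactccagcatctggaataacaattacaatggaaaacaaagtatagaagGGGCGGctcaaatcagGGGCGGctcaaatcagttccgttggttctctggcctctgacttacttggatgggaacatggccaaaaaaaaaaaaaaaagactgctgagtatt
The GC box lay 128 bases before the start of Liph and 42 bases before the second start of Vldlr. Cd36 had GGGCGG at 109 and 93 bases and AGGTCA at 228 bases before its start. A match is a run of letters and not a measured binding site.

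Levels are normalized log2 signals, so a difference of 1 is a 2-fold change of signal, and signals of different probes were not compared. The median signal per array was 81.3 to 98.7, and the share of probes detected was 24.05% to 31.05%. The tissue label fitted its markers: 10 of 12 listed acinar genes were kept, at array means of 13.97 to 14.22, and Ins2, the insulin gene of islets, was detected on all 24 arrays. Of the 12 adipocyte genes listed, 5 were kept (array means of 4.32 to 5.69), and the fat cell genes Fabp4, Plin1 and Pck1 were detected on at most 1 array. Each of the 5 was undetected on most arrays. Adipoq was detected on 10 of 24, Lep on 7, Retn on 5, and Lipe and Car3 on 4 each. None of the 6 muscle genes was kept.

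Lpl was lower at each step of the extract dose. Probe ILMN_2692723 was detected on all 24 arrays. Its 4 levels were 8.23, 8.83, 8.84 and 8.40 in water, and 8.56, 8.54, 8.23 and 7.75 in PAE 0.1X. In PAE 1X they were 8.48, 7.68, 7.84 and 7.58, and in PAE 3X 7.70, 7.20, 7.35 and 7.74. Every PAE 3X array lay below every water array, whereas PAE 0.1X and PAE 1X overlapped water. Means with SD (n = 4 each) were 8.58 ± 0.31 for water, 8.27 ± 0.38 for PAE 0.1X, 7.90 ± 0.40 for PAE 1X and 7.50 ± 0.26 for PAE 3X. The differences from water were -0.31, -0.68 and -1.08 (SE 0.19 each), so that the signal at the highest dose was 2.11-fold lower, and the slope was -0.36 per dose step (SE 0.06). Without PAE 0.1X 4 the difference of the lowest dose was -0.13. Over all kept probes, 2.15% had every PAE 3X array below every water array. These values chose the gene and are not evidence for it.

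The slope was also measured under another scaling and beside markers of other cell types. With arrays scaled to a common median in place of quantile normalization the slope was -0.22, or -0.28 relative to the median of all probes, which itself shifted by 0.06 per step. The differences from water were then -0.27, -0.35 and -0.70 for the 3 doses in rising order (-0.27, -0.48 and -0.86 relative to all probes). PAE 1X 1, the array of that group with the highest Lpl, also had the group's highest mean of adipocyte genes (5.59, against 4.33 to 4.48 on the other 3) and of macrophage genes (6.04, against 4.86 to 5.34). Without this array the difference of PAE 1X from water was -0.87. Water 3, which had the highest Lpl of all 24 arrays, likewise had the highest adipocyte mean of its group (5.69, against 4.45 to 4.76) and the highest macrophage mean (5.89). PAE 3X 4 was also highest of its group for Lpl and both means. AFFB 3 went the other way, with its group's lowest Lpl (7.90) and highest adipocyte (4.72) and macrophage (5.65) means. In PAE 0.1X and sitagliptin no array was highest for Lpl and both means. Sitagliptin 1 had its group's highest macrophage mean (5.87) with Lpl at 8.15. Without water 3 the slope was -0.33 and the 3 differences were -0.22, -0.59 and -0.99. All 5 kept adipocyte genes and all 7 kept macrophage genes had a negative slope, with medians of -0.05 and -0.07 per step. In the islet list 5 of 6 kept genes had a negative slope (median -0.18), and in the blood list 3 of 4 had a positive one (median 0.27). Islet array means overlapped widely, at 6.62 to 8.27 in PAE 3X and 7.23 to 9.57 in water, and blood means were 7.50 to 8.75 in PAE 3X and 7.18 to 7.76 in water. Under median scaling the 5 adipocyte genes again had a negative slope, whereas 4 of the 7 macrophage genes had a positive one (median 0.01, or -0.05 relative to all probes). Summed linear levels of the 5 adipocyte genes were 109.9 to 342.8 for water, 106.9 to 173.1 for PAE 0.1X, 100.6 to 370.4 for PAE 1X and 104.0 to 195.8 for PAE 3X. Those of the 7 macrophage genes were 329.9 to 483.9 for water, 267.2 to 349.6 for PAE 0.1X, 210.8 to 570.0 for PAE 1X and 267.1 to 393.6 for PAE 3X. The slope of Lpl was -0.32 with the adipocyte mean as a covariate, -0.33 with the macrophage mean, -0.37 with the islet mean and -0.41 with the blood mean. The adipocyte genes were near background on most arrays, which limits their mean as a measure of fat cells. Clock genes, which follow the time of day, had a positive slope for 8 of 10 kept members (median 0.09). Arrays of high clock mean were the lowest of their groups for Lpl in PAE 1X (array 4, 7.58) and PAE 3X (arrays 2 and 3, 7.20 and 7.35). This was not so in water (array 4, 8.40). In sitagliptin array 4 was lowest by little (8.14), next to 8.15 on array 1, which had the group's lowest clock mean (5.67). Over all 42 alternatives, some without the arrays of high clock mean or with that mean as a covariate, the slope was -0.41 to -0.22. In whole tissue, fewer cells of a type and less RNA per cell cannot be told apart.

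Lpl was also below water in the 2 groups that the choice of members did not use, and neither difference passed. Levels in AFFB were 8.20, 8.08, 7.90 and 8.09 (mean 8.07 ± 0.12, SD, n = 4), all below the lowest of the 4 water arrays. The difference was -0.51 (SE 0.19, 95% interval -0.91 to -0.11) and did not pass (adjusted p = 0.919 in limma, with Benjamini-Hochberg adjustment over all kept probes). Levels in sitagliptin were 8.15, 8.25, 8.38 and 8.14 (mean 8.23 ± 0.11), which overlapped water. That difference was -0.35 (SE 0.19, 95% interval -0.75 to 0.05, adjusted p = 0.9996 in limma). In sitagliptin 4 of 5 adipocyte genes and 6 of 7 macrophage genes were lower than in water, with medians of -0.27 and -0.21. The difference was -0.21 with the adipocyte mean as a covariate, -0.26 with the macrophage mean and -0.21 under median scaling. Both comparisons rest on the water arrays, which are also those by which Lpl was picked. Sitagliptin minus AFFB, which shares no array with the choice of members, was 0.16 (SE 0.19, 95% interval -0.24 to 0.56). With the adipocyte mean as a covariate the AFFB difference was -0.33. The adipocyte genes were lower in AFFB than in water for 4 of 5 members and the macrophage genes for 6 of 7, with medians of -0.41 and -0.20. In the order of group means, water, PAE 0.1X, sitagliptin, AFFB, PAE 1X and PAE 3X, every neighbouring pair overlapped.

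**Figure D1:**
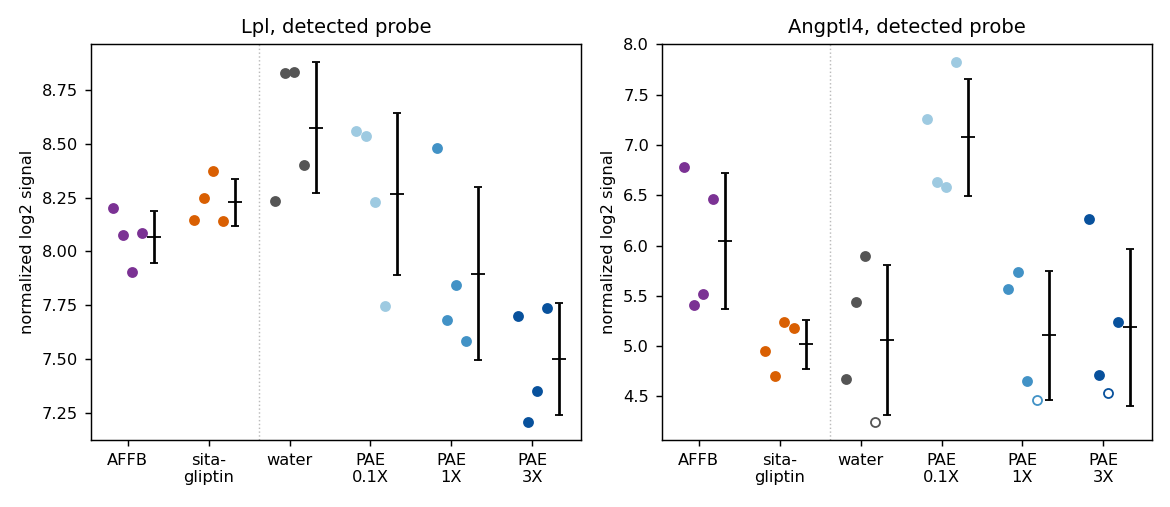
Normalized log2 signal of the detected Lpl probe (left) and the detected Angptl4 probe (right) on each array, by group. Filled points were detected, open points were not, and the bar beside each group is the mean with SD (n = 4). Lpl is lowest in PAE 3X, at 7.20 to 7.74, and Angptl4 highest in PAE 0.1X, at 6.59 to 7.83.

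Angptl4 stood high at the lowest extract dose and not at the higher doses. Probe ILMN_2759365 was detected on 21 arrays: on 3 of 4 in water, PAE 1X and PAE 3X, and on all 4 in the other groups. Levels were 4.68, 5.44, 5.89 and 4.24 in water and 7.26, 6.64, 6.59 and 7.83 in PAE 0.1X, with every PAE 0.1X array above every water array, as was the case for 1.39% of all kept probes. In PAE 1X the levels were 5.57, 5.73, 4.66 and 4.47, and in PAE 3X 6.27, 4.71, 4.53 and 5.24. Both groups overlapped water. Means with SD (n = 4 each) were 5.06 ± 0.74 for water, 7.08 ± 0.59 for PAE 0.1X, 5.11 ± 0.64 for PAE 1X and 5.19 ± 0.78 for PAE 3X. The differences from water were 2.01, 0.04 and 0.13 (SE 0.40 each), the first being 4.04-fold in signal. The first difference chose the gene and is a description. It was 1.00 without background correction and 1.30 with a neqc offset of 50, settings that compress levels near the background. The 5 arrays that stood apart by a high mean of clock genes, which follow the time of day, were water 4, PAE 1X 4, PAE 3X 2 and 3 and sitagliptin 4 (6.75 to 6.98, against 5.66 to 6.30 on the other 19), with none in PAE 0.1X or AFFB. Water 4, PAE 1X 4 and PAE 3X 3 were the lowest of their groups for Angptl4. PAE 3X 2 (4.71) was not, and sitagliptin 4 (5.18) was below only sitagliptin 3 (5.24) in its group. Without the 5 arrays of high clock mean the differences from water along the dose were 1.74, -0.02 and 0.42. With the clock mean as a covariate they were 1.81, 0.04 and 0.23.

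AFFB held a wide range of Angptl4 levels. They were 6.78, 5.41, 5.52 and 6.46 in AFFB, 4.95, 4.70, 5.24 and 5.18 in sitagliptin, and 4.68, 5.44, 5.89 and 4.24 in water. AFFB lay above sitagliptin on every array and overlapped water. Sitagliptin minus AFFB was -1.03 (SE 0.40, 95% interval -1.85 to -0.21), and it did not pass (adjusted p = 0.9999 in limma). Means with SD (n = 4 each) were 5.02 ± 0.25 in sitagliptin and 6.05 ± 0.68 in AFFB. This comparison shares no array with the choice of members. AFFB minus water was 0.98 (SE 0.40, 95% interval 0.16 to 1.80, adjusted p = 0.919 in limma), and sitagliptin minus water was -0.04 (SE 0.40). The differences from water rest on the water arrays, which also entered the choice of Angptl4. Without background correction these 3 differences were -0.43, 0.42 and -0.013. In AFFB, arrays 1 and 4 were above both other arrays.

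AFFB and PAE 1X were given at like anthocyanin doses, 8.4 and 9.0 mg per kg per day. AFFB minus PAE 1X was 0.17 for Lpl (SE 0.19) and 0.94 for Angptl4 (SE 0.40), and the arrays of the groups overlapped for both genes. Under median scaling the Lpl difference was -0.06 (0.07 relative to all probes). The second Liph probe was the 1 member probe of 12 whose groups did not overlap here, higher in AFFB by 0.49 (SE 0.16), as was the case for 0.848% of all kept probes. The PAE 1X arrays entered the dose slope by which Lpl was picked, and these differences are given without a test.

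Gpihbp1 and Lmf1, the partners that carry and fold the enzyme, showed small differences. The brighter Gpihbp1 probe, detected on all 24 arrays, had levels of 5.26, 5.71, 5.39 and 5.49 in AFFB, 5.02, 5.16, 5.47 and 5.59 in sitagliptin, and 5.08, 4.88, 5.13 and 5.65 in water. The groups overlapped, and AFFB minus water was 0.28 (SE 0.21) and sitagliptin minus water 0.12 (SE 0.21). Its differences from water along the dose were 0.41, 0.45 and 0.33 (SE 0.21 each), the opposite sign to those of Lpl. Without PAE 1X 4 the second was 0.23, and without water 2 AFFB minus water was 0.18. Without background correction the dose differences were 0.15, 0.18 and 0.12. The dimmer probe, detected on 17 arrays, gave 0.42, 0.11 and 0.14 (SE 0.26 each) and correlated with the brighter at r = 0.54 over 24 arrays. Without PAE 1X 4 its difference for that dose was -0.18. Gpihbp1 is made by capillary endothelium. Of 12 listed endothelial genes 8 were kept, with array means of 5.11 to 5.66 in AFFB, 5.12 to 5.57 in sitagliptin and 5.47 to 5.69 in water, and of 5.20 to 6.05 in PAE 0.1X, 5.07 to 5.86 in PAE 1X and 5.18 to 5.76 in PAE 3X.

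Lmf1, detected on all 24 arrays by its brighter probe, varied least of the 12 member probes relative to other genes. Its SD over the arrays was at the percentile 14.5 of all kept probes. Group means were 7.09 ± 0.08 in AFFB, 7.19 ± 0.10 in sitagliptin and 7.23 ± 0.16 in water (SD, n = 4 each). AFFB minus water was -0.14 (SE 0.13) and sitagliptin minus water -0.03 (SE 0.13). Along the dose its differences from water were -0.24, 0.04 and -0.21 (SE 0.13 each), without a steady order. The last of these was 0.11 under median scaling.

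Liph, a membrane-bound phospholipase that makes lysophosphatidic acid and is related in sequence to Lpl, had the smallest p-values of the members. Its dimmer probe, ILMN_2760434, had levels of 5.18, 5.18, 5.16 and 5.09 in AFFB, 5.29, 5.12, 5.10 and 4.90 in sitagliptin, and 4.42, 4.59, 4.81 and 4.40 in water. Every AFFB and every sitagliptin array lay above every water array. The probe was detected on all 4 AFFB and all 4 sitagliptin arrays, on 1 of 4 water arrays and on 2 of 4 in each PAE group. AFFB minus water was 0.59 (SE 0.16, 95% interval 0.27 to 0.92, adjusted p = 0.919 in limma). Sitagliptin minus water was 0.55 (SE 0.16, 95% interval 0.22 to 0.87, adjusted p = 0.9996 in limma). Neither passed, and without background correction the differences were 0.19 and 0.18.

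The brighter Liph probe, ILMN_1217063, was detected on 21 arrays and agreed only in part. Its levels were 4.72, 5.26, 5.15 and 4.54 in AFFB, 5.46, 5.09, 5.31 and 5.16 in sitagliptin, and 5.02, 4.82, 4.92 and 4.62 in water. Sitagliptin lay above water on every array, by 0.41 on average (SE 0.18, adjusted p = 0.9996 in limma). AFFB overlapped water, at a difference of 0.07 (SE 0.18). The 2 probes correlated at r = 0.31 over 24 arrays. Differences of the PAE groups from water were 0.20, 0.26 and 0.25 for the brighter probe (SE 0.18 each) and 0.21, 0.10 and 0.23 for the dimmer (SE 0.16 each).

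Lipa, the lysosomal acid lipase that splits cholesteryl esters and triglycerides inside cells, was near the limit of detection. Its brighter probe was detected on 20 arrays, with means of 5.10 ± 0.39 in AFFB, 4.92 ± 0.32 in sitagliptin and 5.00 ± 0.41 in water (SD, n = 4 each). The second probe was detected on 10 arrays, and the 2 probes correlated at r = 0.59. No group difference of either probe, extract groups included, was beyond 0.19 in size. Lipg, the endothelial lipase that prefers phospholipids of high density lipoprotein, was detected on 1 of 24 arrays, in water, and was not tested. Lipc, hepatic lipase, had no probe under its symbol.

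Vldlr, a receptor that binds apolipoprotein E on triglyceride-rich particles, was read by 3 kept probes, each detected on all 24 arrays and correlated with the others at r = 0.82 to 0.89. Levels of the brightest were 7.99, 7.97, 8.08 and 8.04 in AFFB, 7.93, 8.45, 8.14 and 8.44 in sitagliptin, and 7.91, 7.84, 8.03 and 8.10 in water. The 3 groups overlapped. AFFB minus water was 0.05, 0.04 and 0.08 for the 3 probes (SE 0.18, 0.19 and 0.21), and sitagliptin minus water was 0.27, 0.19 and 0.12 with the same errors. For the brightest probe the intervals (95%) were -0.32 to 0.42 and -0.10 to 0.64, both of which include 0. PAE 1X minus water was 0.27, 0.19 and 0.22, and PAE 3X minus water was 0.07 for each of the 3 probes. Under median scaling the values were 0.59, 0.48 and 0.51 for PAE 1X and 0.42, 0.39 and 0.39 for PAE 3X, where the median of all probes shifted by 0.13 and 0.16. Cd36, the fatty acid translocase of adipocytes, muscle and endothelium, was not detected on any of the 24 arrays, and 3 further Vldlr probes were detected on 0, 0 and 1 array. The second probes of Lpl, Angptl4 and Lmf1 were detected on none.

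**Figure D2:**
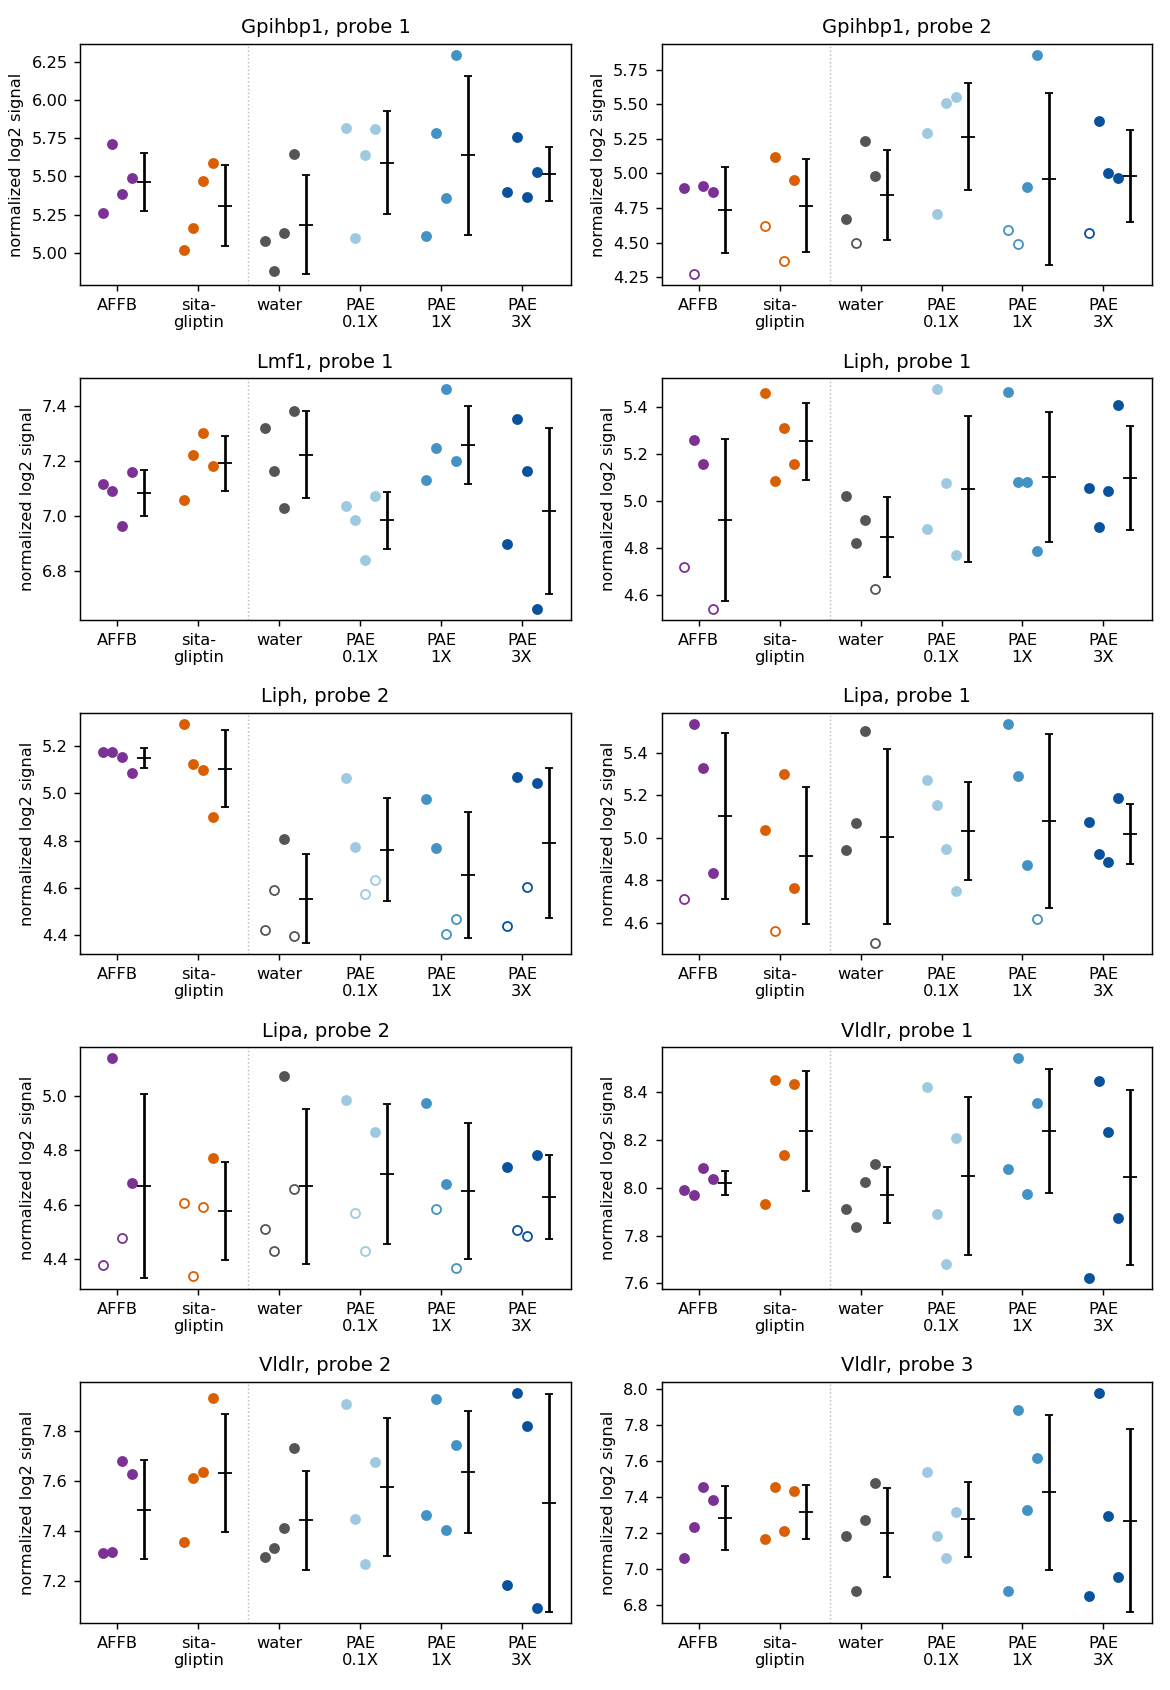
Normalized log2 signal of the 10 other kept member probes on each array, by group, each panel with its own axis range. Filled points were detected, open points were not, and bars are means with SD (n = 4). The AFFB and sitagliptin points of Liph probe 2 lie above all 4 water points, and the 3 Vldlr panels share their pattern over arrays.

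No member probe passed an adjusted p of 0.05 in the 3 comparisons that were tested, and no probe of the whole array did. For AFFB minus water 0 of 12 member probes passed in limma (all probes 0%), and 3 of 12 had an unadjusted p under 0.05, against 5.03% of all probes. Groups did not overlap for 1 of 12 higher (Liph probe 2; 1.68% of all probes) and 1 of 12 lower (Lpl; 1.92%). For sitagliptin minus water 0 of 12 passed (all probes 0%), 2 of 12 had an unadjusted p under 0.05 (2.74%), and both Liph probes were above water without overlap (1.22% of all probes). The 2 under 0.05 are these same Liph probes, so both counts rest on 1 gene. For sitagliptin minus AFFB 0 of 12 passed (all probes 0%), 1 of 12 had an unadjusted p under 0.05 (4.16%), and Angptl4 was lower without overlap (1.12%). Medians of the 12 differences were 0.06, 0.04 and 0.03, against 0.00, 0.01 and 0.01 over all kept probes. The 2 comparisons with water share the water arrays, which also entered the choice of Lpl and Angptl4. For AFFB minus water these 2 genes are among the 3 under 0.05, and Lpl is the 1 lower without overlap. Those counts are thus no separate evidence for them.

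**Figure D3:**
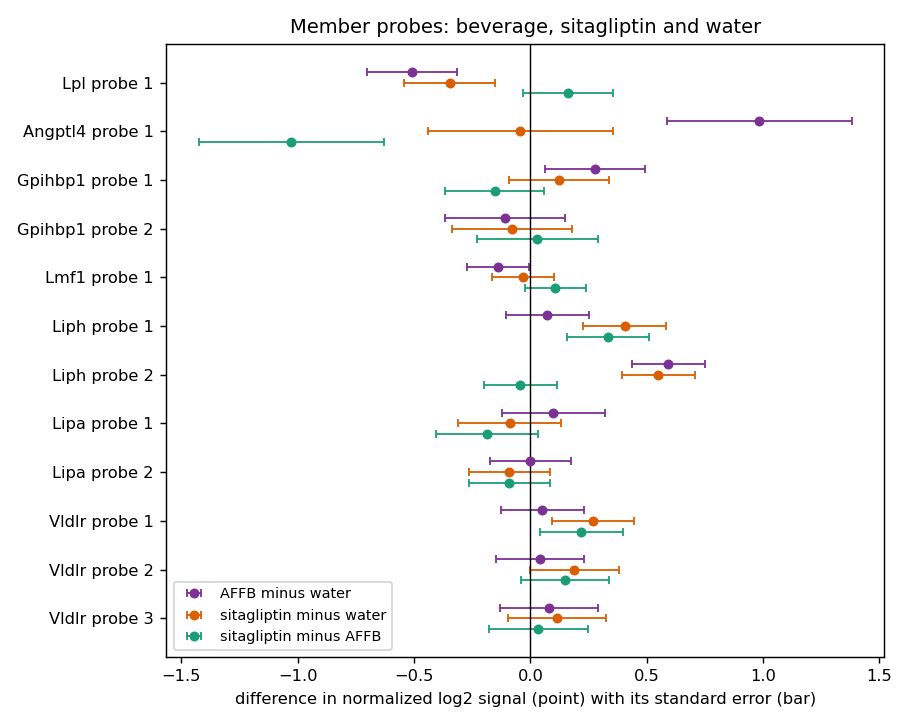
Differences in normalized log2 signal for the 12 kept member probes between AFFB, sitagliptin and water, with standard errors (n = 4 per group). Angptl4 is at 0.98 for AFFB minus water and at -1.03 for sitagliptin minus AFFB, Lpl at -0.51 for AFFB minus water, and Liph probe 2 at 0.59 and 0.55 against water.

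**Figure D4:**
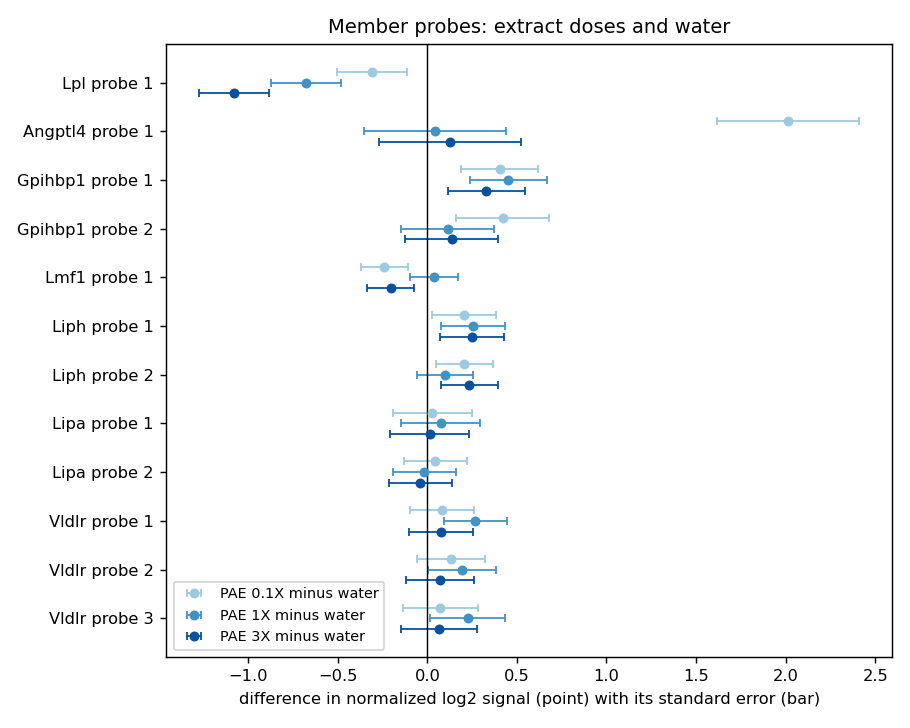
Differences in normalized log2 signal of each extract dose from water for the 12 kept member probes, with standard errors (n = 4 per group). Lpl runs from -0.31 to -1.08 with dose, Angptl4 is at 2.01 for the lowest dose only, and the other probes lie between -0.24 and 0.45.

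Of 26 listed apolipoproteins, receptors and regulators of lipoprotein handling 20 were kept, and 0 passed in limma in any of the 3 tested comparisons. For AFFB minus water 8 were higher and 12 lower, with a median of -0.13, against 0.00 over all probes. Apoe, the ligand by which remnants bind Vldlr, was at 6.33 ± 0.20 in AFFB and 6.90 ± 0.12 in water (SD, n = 4 each), without overlap and at a difference of -0.56 (SE 0.19, adjusted p = 0.919 in limma). Apoe is also made in quantity by macrophages, whose genes were lower in AFFB for 6 of 7 members, and the part of these cells in its difference was not tested. Sdc1, a heparan sulfate proteoglycan that takes up remnants, differed by -0.51 (SE 0.15, adjusted p = 0.919 in limma), from means of 4.36 ± 0.09 in AFFB and 4.87 ± 0.35 in water. The AFFB levels of Sdc1 were near background. Apoa1, the main protein of high density lipoprotein, differed by -0.72 (SE 0.32), with water spread from 4.25 to 6.34.

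Fatty acid uptake genes (9 of 16 kept) and further lipases (11 of 15 kept) had 0 passing in any of the tested comparisons. For AFFB minus water 5 uptake genes were higher and 4 lower, and 6 lipase genes higher and 5 lower (5 higher and 6 lower under median scaling). Cav1, the caveolar coat protein of adipocytes and endothelium, was at 5.63 ± 0.40 in AFFB and 6.45 ± 0.64 in water (SD, n = 4 each), a difference of -0.83 (SE 0.33, adjusted p = 0.919 in limma). Endothelial genes were lower in AFFB than in water for 7 of 8 members (median -0.18) and adipocyte genes for 4 of 5 (median -0.41), and their part in the Cav1 difference was not tested. Acsl4, which activates long-chain fatty acids, differed by -0.34 (SE 0.16) between sitagliptin and water, and Acsl6, of the same family, by 0.30 (SE 0.19) between AFFB and water. Among the intracellular lipases, sitagliptin minus AFFB was -0.39 for Mgll (SE 0.20), -0.35 for Lipe (SE 0.18) and 0.26 for Pnpla2 (SE 0.16), which encode monoglyceride, hormone-sensitive and adipose triglyceride lipase. Lipe was detected on only 4 of 24 arrays, and its levels were near background.

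The list of PPAR and fasting targets holds genes that respond to fatty acids and food withdrawal as Angptl4 does. It also holds nuclear receptors listed as such, among them Ppara, Ppard, Pparg, Rxra and Nr1h3. Of its 13 kept genes (of 21 listed) 0 passed in the tested comparisons. For AFFB minus water 11 were higher and 2 lower, with a median of 0.32, and for sitagliptin minus AFFB 3 were higher and 10 lower, with a median of -0.23 (all probes 0.01). Under median scaling the counts were 10 higher and 3 lower, and 5 higher and 8 lower. These 2 comparisons share the AFFB arrays. Acot1, a fatty acyl-CoA thioesterase induced by PPAR alpha, was at 9.50, 6.93, 7.20 and 8.10 in AFFB and 5.93, 5.17, 6.16 and 4.42 in sitagliptin, without overlap. Sitagliptin minus AFFB was -2.51 (SE 0.61, adjusted p = 0.9999 in limma). Hadhb, a subunit of the mitochondrial enzyme of fatty acid oxidation, differed by -0.58 (SE 0.20, adjusted p = 0.9999 in limma). Fgf21, a fasting hormone that the exocrine pancreas also makes, differed by -0.99 (SE 0.41), from means of 8.76 ± 0.25 in sitagliptin and 9.75 ± 0.45 in AFFB (SD, n = 4 each). In PAE 0.1X, 10 of the 13 were above water (median 0.24, or 0.16 under median scaling, and -0.004 over all probes), but Fgf21 differed by -0.43 (SE 0.41). In PAE 1X 7 of the 13 were above water (median 0.07), and in PAE 3X 8 (median 0.05). The PAE 0.1X and water arrays are those by which Angptl4 was picked, and these counts are descriptions.

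The genes whose levels followed Angptl4 most closely over the 24 arrays were Acot1 (r = 0.93), Hadhb (0.86), the sterol transfer protein gene Gramd1b (0.81), the fatty acid isomerase gene Eci2 (0.80), the predicted gene Gm26588 (0.78) and the bile acid receptor gene Nr1h4 (0.75). After removal of group means r was 0.86 for Acot1, 0.72 for Hadhb and 0.46 for Nr1h4. Acot1 was at 8.97, 7.47, 8.94 and 9.43 in PAE 0.1X, and at 5.44, 6.64, 6.85 and 4.56 in water. In AFFB the 2 arrays with more Angptl4, numbers 1 and 4, were also those with more Acot1. In PAE 3X array 1 was highest for both, at 6.27 and 7.34. Acot1 has a close paralog, Acot2, and a probe may read both.

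For Lpl the nearest genes were Sh3bgrl3, a small thioredoxin-like protein (r = 0.73), the potassium channel Kcnk1 (0.73), the histone H3 gene H3c10 (0.68), Apol7a of the apolipoprotein L family (0.67), the phosphodiesterase Gde1 (0.66) and Laptm5, a lysosomal membrane protein of blood cells (0.65). After removal of group means r was 0.74 for Laptm5, 0.61 for Kcnk1 and 0.43 for Sh3bgrl3. Laptm5 was at 7.28 on PAE 1X 1, where Lpl was 8.48, and at 7.37 on water 2, where Lpl was 8.83. It was highest on PAE 0.1X 1, at 7.51, where Lpl was 8.56. On water 3, the array of highest Lpl (8.84), Laptm5 was only 6.92, and on water 4 it was 6.15 with Lpl at 8.40. These correlations were picked as the highest of all named genes, share the arrays and their normalization, and are descriptions.

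**Figure D5:**
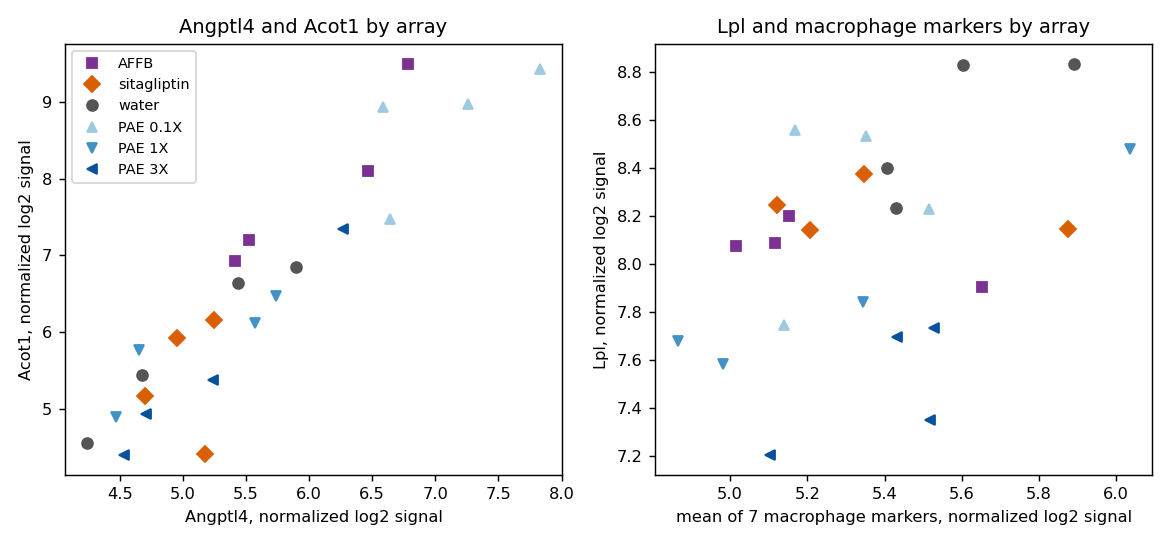
Normalized log2 signals on each of the 24 arrays: Acot1 against Angptl4 (left), and Lpl against the mean of the 7 kept macrophage genes (right). Acot1 and Angptl4 were high together in PAE 0.1X and on AFFB arrays 1 and 4. The array with the highest macrophage mean, PAE 1X 1, is also the highest of its group for Lpl. AFFB 3 has the highest macrophage mean of its group but the lowest Lpl.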

How the data were processed

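Biotin-labelled pancreatic RNA was read on Illumina bead arrays, per the labels. Per the file headers, the deposited table gave a linear signal intensity and a detection p-value for each probe and array, neither background-subtracted nor normalized. A further deposited table of log2 values, for which R 3.1.2 and limma 3.22.1 are named per the submitters' processing notes, differed from the values used here by at most 0.104 (99th percentile 0.00194) and served as an alternative. Scanner settings and sample chips are not given in the sources used here.

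For the values used here, neqc (offset 16) of limma 3.58.1 in R 4.3.3 subtracted background, set equal quantiles and took log2. Probes detected (p under 0.05) on at least 4 of 24 arrays were kept. The number of arrays limits the precision. Groups came from the sample titles. All arrays entered 1 limma fit with 6 group means and eBayes, and tests were two-sided with Benjamini-Hochberg adjustment over 15328 probes. AFFB against water, sitagliptin against water and sitagliptin against AFFB were tested. The script was tested on simulated data. Alternatives changed background, scaling, filter, covariates, dose scale or arrays.

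The members, gene lists and tests were chosen with earlier results of these data known. Named genes were every kept member probe, from each list the 3 of smallest p in a tested comparison, and the 6 with the highest Pearson r to Lpl and to Angptl4. Each listed gene entered by its brightest kept probe.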

Additional observations from a re-analysis of the deposited data

Results flagged for a closer look

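Of 72 groups of 4 arrays (12 member probes in 6 groups), 1 held an array set apart from the other 3, where chance gives about 1 in 20. The dimmer Gpihbp1 probe was at 4.27 on AFFB 2 and at 4.87 to 4.91 on the other 3 AFFB arrays, and the gap was 0.933 of the group's range. The brighter Gpihbp1 probe had its highest AFFB level, 5.71, on that array. Without it, AFFB minus water for the dimmer probe was 0.047, in place of -0.11.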

How the results depend on the processing

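Counts of member probes passing were 0 in each of the 3 tested comparisons under all 40 alternatives, those without single arrays included (0 to 0). The Lpl dose slope of -0.36 was -0.22 under median scaling, and -0.39 to -0.33 without single arrays. The Angptl4 difference of PAE 0.1X from water, 2.01, was 1.00 without background correction, 1.30 with an offset of 50, and 1.74 to 2.29 without single arrays. Under median scaling, Lmf1 for PAE 3X minus water was 0.11 in place of -0.21 (-0.05 relative to all probes, whose median shifted by 0.16), and the Lmf1 slope was 0.087 in place of -0.034. Without the 5 arrays of high clock gene score, the 3 kept Vldlr probes for PAE 3X minus water were at -0.18, -0.21 and -0.21, in place of 0.07 each. The causes were not tested. Over all probes, 1 passed for AFFB minus water with the adipocyte or the clock mean as a covariate, without water 3 and without PAE 3X 3, and 0 otherwise. The macrophage, clock, islet and blood covariates were chosen after seeing the data.

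Of 60 pairs of samples with the same replicate number, 21 had residual correlations over 0.1 (range -0.55 to 0.63, median 0.03). Pairs of different numbers were not compared, so this does not settle whether the numbers pair the samples. The median raw signal was 81.3 to 85.8 on arrays numbered 1 and 88.4 to 98.7 on arrays numbered 2. Every group held the same replicate numbers, so a replicate block can change the error of a difference or slope but not its size. The Lpl slope of -0.36 and the Angptl4 difference of 2.01 were thus unchanged by design and say nothing on pairing. With the block 0 member probes passed. Signals near background limit Angptl4, Lipa, Liph and both Gpihbp1 probes. They also limit the kept adipocyte genes, Lipe among them, and the AFFB levels of Sdc1 and Apoa1. For PAE 0.1X minus water the brighter Gpihbp1 probe was at 0.15 without background correction, in place of 0.41. Lpl for AFFB minus PAE 1X was -0.06 under median scaling, in place of 0.17.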
